A study of Mus musculus with 6 samples.

Results

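The genes described here are the mouse Ddx and Dhx genes, which encode RNA helicases of the DEAD-box and DEAH-box families, measured in KLS cells. They were chosen by name: a probe set counted when the platform annotation gave it exactly 1 gene symbol made of Ddx or Dhx and a number, and 5 genes were left out by the rule (the germ-line genes Ddx4 and Ddx43, the viral RNA sensors Ddx58 and Dhx58, and Ddx3y). This gave 47 genes, of 20059 genes measured in all. Measured values entered the choice in that a gene's value is the mean log2 intensity of its probe sets above the median level of the table (log2 5.89). Of 1164 probe sets named for these genes 1054 passed, and each of the 47 genes kept between 4 and 39 of them. The probe sets nearest to that level were 1 of Ddx51 at 5.893 just inside and 1 of Ddx60 at 5.878 just outside. The family was also proposed with earlier results of the same genotypes known. The genotype differences below are therefore a description of these arrays.

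The study profiled KLS cells, the marrow fraction defined by Kit, by Sca-1 and by the absence of mature lineage markers, in which blood stem cells and multipotent progenitors are found. There were 3 arrays of the genotype Wild-type and 3 of the genotype Dnmt3a +/-, which lacks 1 functional copy of Dnmt3a, a gene for a DNA methyltransferase; the sources used here name no treatment, age or strain. By its title the study concerns predisposition of blood-forming cells to myeloid malignancy when this copy is missing. The labels do not say whether arrays came from separate or pooled animals, so the spread between arrays may be technical. The sources used here do not say how the copy of Dnmt3a was lost or in which cells.

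RNA helicases use ATP to unwind short RNA duplexes or to pull proteins off RNA. DEAD-box and DEAH-box proteins take their names from an amino acid motif in the ATP-binding core, and different members serve splicing, ribosome assembly, nuclear export, translation and mRNA decay. DDX41 and DHX15 are known for mutations in human myeloid disease. One gene selected by the symbol rule, Ddx26b, is now called Ints6l; it encodes a relative of a subunit of the Integrator complex and not a classical helicase. Ddx39 is now called Ddx39a. Ddx39b was annotated on the platform under an older name, so it lies outside the selection and is cited only beside its relative.

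Most of the genes were slightly lower in Dnmt3a+/- than in wild-type cells, and the size of this shift depended on single arrays of both genotypes. Of the 47 genes, 43 had a lower mean in Dnmt3a+/- cells, where 54.3% of all 20059 genes did. Their median log2 difference (Dnmt3a+/- minus wild-type) was -0.18, against -0.02 for all genes. No gene of the family passed after adjustment (limma, Benjamini-Hochberg over all genes, smallest adjusted p of a member 0.631), and 0% of all genes did. At an unadjusted p under 0.05 (limma) there were 4 members (Ints6l, Ddx6, Ddx50 and Ddx41), all lower. Of all genes, 4.57% were lower and 2.92% higher at that p. The shares of lower genes, 54.3% and 4.57%, rose with the level of the genes, as given below. Without Dnmt3a+/- replicate 2, 35 of the 47 were lower and the median was -0.09. Over all genes 51.5% were lower in that setting, with a median of -0.006, and the median of the highest level band was -0.058. Without wild-type replicate 2, 36 of the 47 were lower with a median of -0.13, and no member had an unadjusted p under 0.05 (limma). Over all genes 54% were then lower, with a median of -0.021, and the highest level band had a median of -0.112.

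Promoter sequences of 4 members are shown here because they frame the range of differences (Ddx52 the lowest, Dhx40 the highest) and include the myeloid disease gene Ddx41 and the interferon-inducible gene Ddx60. Each is the 250 bases upstream of a RefSeq gene start (GRCm38.p6), 5′ to 3′ on the gene's strand. Capitals mark CpG dinucleotides, the sites that DNA methyltransferases methylate, except for Ddx60, where they mark matches to the interferon-stimulated response element. That motif was searched as GAAA, any 2 bases and GAAA again, on both strands, with overlaps allowed. Methylation was not measured in these samples.
Ddx52 (chr11:83941840-83942089, plus strand): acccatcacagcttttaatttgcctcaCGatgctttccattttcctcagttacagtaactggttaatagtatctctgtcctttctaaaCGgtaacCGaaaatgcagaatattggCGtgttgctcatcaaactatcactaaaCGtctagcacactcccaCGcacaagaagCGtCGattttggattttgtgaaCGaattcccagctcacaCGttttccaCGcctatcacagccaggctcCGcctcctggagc
Ddx41 (chr13:55536659-55536908, minus strand): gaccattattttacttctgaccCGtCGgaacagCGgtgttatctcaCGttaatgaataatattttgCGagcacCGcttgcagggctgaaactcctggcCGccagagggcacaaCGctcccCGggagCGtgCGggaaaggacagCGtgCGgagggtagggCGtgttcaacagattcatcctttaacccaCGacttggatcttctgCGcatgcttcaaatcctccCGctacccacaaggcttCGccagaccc
Ddx60 (chr8:61927837-61928086, plus strand): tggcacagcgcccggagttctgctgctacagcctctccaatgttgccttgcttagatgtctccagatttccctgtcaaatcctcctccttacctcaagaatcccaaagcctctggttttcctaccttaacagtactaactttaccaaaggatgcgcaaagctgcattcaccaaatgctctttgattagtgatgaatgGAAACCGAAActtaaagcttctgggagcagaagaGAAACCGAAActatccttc
Dhx40 (chr11:86807661-86807910, minus strand): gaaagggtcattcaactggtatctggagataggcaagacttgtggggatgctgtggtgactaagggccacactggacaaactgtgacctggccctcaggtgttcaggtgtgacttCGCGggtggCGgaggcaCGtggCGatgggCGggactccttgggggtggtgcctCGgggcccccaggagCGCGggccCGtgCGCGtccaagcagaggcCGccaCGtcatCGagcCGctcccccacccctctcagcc

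The Ddx52 sequence holds 12 CpGs, that of Ddx41 holds 18 and that of Dhx40 holds 16, while the Ddx60 promoter has 5. The genes with the lowest and the highest difference thus both lay between the median of all promoters and that of the members, given below. Promoters were found for 42 of the 47 genes, with 53 start sites. Their median was 18 CpGs per 250 bases, against 6 over all 32851 promoters of the table, which also covers non-coding genes. At least 10 CpGs were present in 83% of the members' promoters and in 37.8% of all. The interferon motif was found at 3 start sites, 1 of Ddx60 with 2 matches and both starts of Ddx49, or 5.7% of the members' promoters, against 2.98% of all. These are 2 genes, and the windows of the Ddx49 starts overlap over most of their length, so a match can be counted in both.

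**Figure D1:**
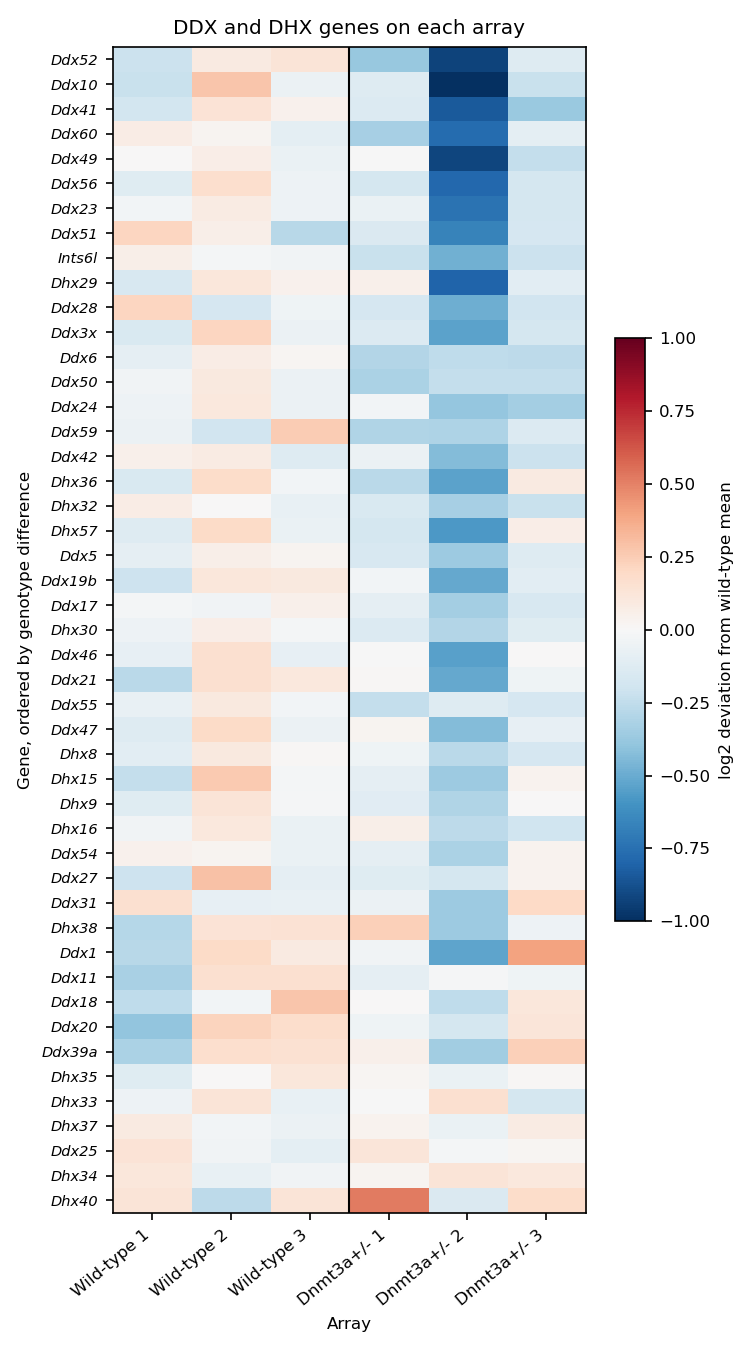
Heat map of the log2 deviation of each of the 47 genes (rows, ordered by genotype difference) from its wild-type mean on each of the 6 arrays (columns); blue is below and red above the wild-type mean. The Dnmt3a+/- replicate 2 column is blue for 45 of the 47 genes, while the other Dnmt3a+/- columns are paler and the wild-type replicate 2 column is mostly red.

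The arrays of both genotypes differed among themselves as much as the genotypes did. The median deviation of the 47 genes from their wild-type means was -0.09, 0.10 and -0.03 on wild-type replicates 1, 2 and 3, and -0.09, -0.36 and -0.11 on Dnmt3a+/- replicates 1, 2 and 3. Dnmt3a+/- replicate 2 lay outside the wild-type range by a wide margin, whereas Dnmt3a+/- replicates 1 and 3 lay beside wild-type replicate 1, so the genotypes overlapped in this summary. The mean of the medians was -0.01 with an SD of 0.10 over the 3 wild-type arrays, and -0.18 with an SD of 0.15 over the 3 Dnmt3a+/- arrays. For 35 of the 47 genes Dnmt3a+/- replicate 2 was the lowest of the 6 arrays, which it was for 32.5% of all genes. At the upper end, wild-type replicate 2 was the highest array for 27 of the 47. The share of all genes for which it was highest was not counted here.

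Several array-wide values moved with these differences, and their part in them was not tested. Dnmt3a+/- replicate 2 also had the lowest mean correlation with the other arrays across genes (0.904, against 0.938 to 0.949). Over all genes, the median difference depended on the level. With genes split by level into 4 bands of equal size, it was 0.07 in the lowest band and -0.13 in the highest, where 78.7% of 5015 genes were lower. No member lay in the lowest band, 7 lay in the second, 22 in the third and 18 in the highest. All 18 in the highest band were lower, with a median of -0.19. In the third band 62.8% of all genes were lower with a median of -0.06, and 19 of the 22 members were, with a median of -0.17. At an unadjusted p under 0.05 (limma), 379 of 5015 genes were lower in the highest band and 299 of 5014 in the third. The members lower at that p were 3 in the highest band and 1 in the third. In the second band, where all genes had a median of 0.04, 6 of the 7 members were lower with a median of -0.25. Cyclic loess, which removes such level dependence between arrays, left 36 of the 47 lower with a median of -0.10, against 0.00 for all genes. A second quantile normalization also gave 36 of 47, with a median of -0.12. Over all genes 49.2% were lower after cyclic loess and 49.4% after the second quantile normalization.

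The targeted gene and the sort markers were read beside the labels. Dnmt3a read 8.51, 8.70 and 8.50 on the wild-type arrays and 8.38, 8.20 and 8.20 on the Dnmt3a+/- arrays (log2 difference -0.31, SE 0.12, limma adjusted p = 0.631), without overlap. Kit read 10.735, 10.80 and 10.68 on the wild-type arrays and 10.65, 10.63 and 10.59 on the Dnmt3a+/- arrays, lower on each of the latter (difference -0.11, SE 0.10). Of all genes, 9.05% were lower without overlap, and in the highest level band 17.9% were. The separation of Dnmt3a and of Kit therefore does not by itself settle the genotype labels. Ly6a, which encodes Sca-1, overlapped between 8.30 and 8.66. Of the 7 sort and progenitor genes measured 5 were lower, with a median of -0.11, among them Flt3 at -0.32 (SE 0.16) and Cd34 at -0.23 (SE 0.13); whether this bears on the helicase genes was not tested. Transcripts of neutrophils, cells that the sort should remove, were present on every array, with S100a8 from 10.68 to 12.06. Of the 7 measured neutrophil markers 6 were higher in Dnmt3a+/- cells and 1 (Mpo, -0.17) was lower, with a median difference of 0.30. Retnlg differed most, at 0.985 (SE 0.22), without overlap. The mean log2 level of the 7 measured neutrophil markers was 10.04, 9.21 and 9.92 on the wild-type arrays and 10.49, 9.95 and 9.73 on the Dnmt3a+/- arrays, so it was lowest on wild-type replicate 2, the array on which most of the helicase genes were highest. Whether these marker levels bear on the helicase values was not tested, and the share of other cells was not measured. Fewer cells of a type and less RNA per cell cannot be told apart in bulk samples. Dnmt3a+/- replicate 2, on which most helicase genes were lowest, had the highest mean of the 4 B lineage markers (7.62, against 7.14 to 7.45 on the other arrays). Its means of the 5 T and NK markers (6.88, against 6.44 to 6.78) and the 2 erythroid markers (7.26, against 6.85 to 7.03) were also the highest. Single markers did not all follow these means. Epor read 7.32 on this array and 7.41 on Dnmt3a+/- replicate 1, and Cd3e read 7.61 here and 7.92 on Dnmt3a+/- replicate 3. Cd79b read 8.57 here and 8.89 on wild-type replicate 2, and Ms4a1 read 6.31 here and 6.91 on wild-type replicate 1. Cd3d and Cd4 were also highest on wild-type replicate 1. The mean of the 4 megakaryocyte markers was not highest here (7.61, against 7.63 on Dnmt3a+/- replicate 1). On Dnmt3a+/- replicate 2 the mean of the 5 monocyte and macrophage markers was level with wild-type replicate 1 (7.764 and 7.762, against 7.51 to 7.72 on the rest). Of these 5 markers 3 were higher and 2 lower in Dnmt3a+/- cells. Vcam1 at 0.78 (SE 0.29) and Adgre1 at 0.42 (SE 0.15) were higher without overlap, and Csf1r at -0.73 (SE 0.19) was lower without overlap. Cd68 (0.16) and Ccr2 (-0.23) overlapped. Of all genes, 6.74% were higher without overlap. Cd79a of B cells differed by 0.85 (SE 0.33) with overlap, but Cd79b (-0.03) and Ms4a1 (-0.10) were lower and Pax5 was at 0.105. Cd3e of T cells differed by 0.335 (SE 0.12) without overlap. Of the 5 T and NK markers 4 were higher and 1 (Cd4, -0.03) was lower. None of these passed after adjustment (limma), and their part in the helicase values was not tested.

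**Figure D2:**
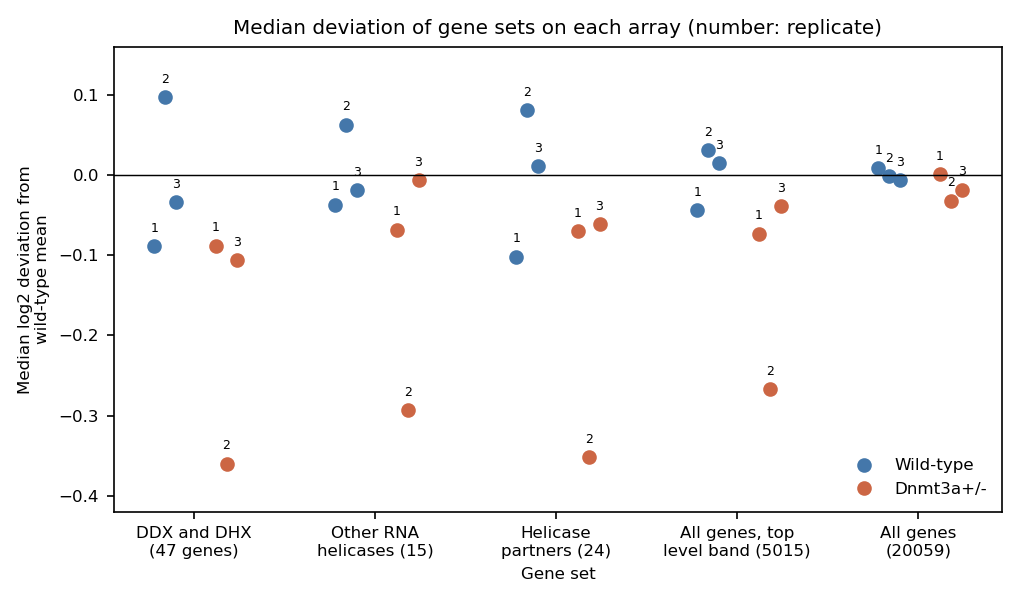
Median log2 deviation from the wild-type mean (vertical axis) of 5 gene sets (horizontal axis) on each array, numbered by replicate, with wild-type in blue and Dnmt3a+/- in orange. Dnmt3a+/- replicate 2 is the lowest point in each set, at -0.36 for the DDX and DHX genes and -0.27 for all genes in the highest level band.

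Helicases of the spliceosome, which drive the rearrangements between the steps of intron removal, were represented by 10 members. All 10 had a negative difference, with a median of -0.15, and in 1 of them, Ddx23, the genotypes did not overlap (9.05% of all genes were lower without overlap and 6.74% higher). Ddx41, which joins the spliceosome around its catalytic steps, read 7.90, 8.22 and 8.13 on the wild-type arrays and 7.95, 7.25 and 7.71 on the Dnmt3a+/- arrays. Dnmt3a+/- replicate 1 lay above wild-type replicate 1, so the genotypes overlapped; the log2 difference was -0.45 (SE 0.19), a fold of 0.733. After cyclic loess it was -0.36, and without Dnmt3a+/- replicate 2 it was -0.255.

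Ddx23, a component of the U5 particle, read 8.29, 8.40 and 8.26 on the wild-type arrays and 8.25, 7.58 and 8.14 on the Dnmt3a+/- arrays. The separation was narrow, since Dnmt3a+/- replicate 1 lay just below wild-type replicate 3, and the difference of -0.33 (SE 0.18) became -0.12 without Dnmt3a+/- replicate 2. Dhx15, which takes spent spliceosomes apart, read 9.27, 9.76 and 9.48 on the wild-type arrays and 9.41, 9.14 and 9.54 on the Dnmt3a+/- arrays. The genotypes overlapped broadly (difference -0.14, SE 0.17). The value was -0.01 after cyclic loess and also -0.01 without wild-type replicate 2. Dhx35 was nearest to 0 in this group at -0.01 (SE 0.11), with 7.42, 7.54 and 7.65 on the wild-type arrays and 7.56, 7.47 and 7.55 on the Dnmt3a+/- arrays, and its sign turned after both other normalizations (0.03 in each), while with the median of its probe sets the value was -0.295. The remaining splicing members were Ddx42, Ddx46, Dhx8, Dhx16, Dhx38 and Ddx20, the last of which acts in assembly of the small nuclear particles. They lay between -0.23 (Ddx42, SE 0.13) and -0.04 (Ddx20, SE 0.18), all with overlap.

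Ddx5 and Ddx17, close relatives that act in transcription, splicing and microRNA processing, moved alike. Ddx5 read 10.46, 10.61 and 10.58 on the wild-type arrays and 10.39, 10.19 and 10.42 on the Dnmt3a+/- arrays, and Ddx17 read 10.32, 10.30 and 10.38 against 10.24, 9.997 and 10.17. In both genes every Dnmt3a+/- array lay below every wild-type array, with differences of -0.22 (SE 0.12) and -0.20 (SE 0.11). The within-array difference of Ddx5 and Ddx17, set to 0 on average in wild-type, was -0.02 ± 0.05 (SD, n = 3) in Dnmt3a+/- cells, where the wild-type SD was 0.09. After cyclic loess the differences were -0.11 and -0.09. Dhx9, a helicase of double-stranded RNA and DNA that completes this group, differed by -0.14 (SE 0.13) and overlapped, from 9.64, 9.89 and 9.75 on the wild-type arrays to 9.65, 9.46 and 9.77 on the Dnmt3a+/- arrays.

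Among the mRNA export helicases, Ddx19b, which releases mRNA from its proteins at the nuclear pore, had the lowest difference. It read 7.73, 8.05 and 8.04 on the wild-type arrays and 7.91, 7.43 and 7.83 on the Dnmt3a+/- arrays (difference -0.21, SE 0.16), and only Dnmt3a+/- replicate 2 lay below the wild-type range. Ddx39a, an export and splicing factor, read 7.55, 8.04 and 8.02 on the wild-type arrays and 7.92, 7.52 and 8.11 on the Dnmt3a+/- arrays, a difference of -0.02 (SE 0.19) whose sign turned after cyclic loess (0.07). Its relative Ddx39b differed by -0.21 (SE 0.16). The within-array difference of Ddx39a and Ddx39b was 0.19 ± 0.04 (SD, n = 3) in Dnmt3a+/- cells above the wild-type average, inside the wild-type spread (SD 0.30). The testis helicase Ddx25, at 7.60, 7.43 and 7.36 on the wild-type arrays and 7.58, 7.44 and 7.48 on the Dnmt3a+/- arrays, kept only 4 of its 15 probe sets above the filter and stood at 0.04 (SE 0.11). The value was -0.08 with the filter at the 75th percentile and 0.26 with the median of probe sets.

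Helicases of translation and mRNA decay had 4 of 5 members lower, with a median of -0.27. Ddx6, which holds translationally silent mRNA and links it to decapping, had little spread: it read 9.43, 9.59 and 9.54 on the wild-type arrays and 9.23, 9.26 and 9.26 on the Dnmt3a+/- arrays. Here the 3 Dnmt3a+/- arrays lay close together, all below wild-type, so the difference of -0.27 (SE 0.10, fold 0.830, limma adjusted p = 0.631) was also -0.28 without Dnmt3a+/- replicate 2. After cyclic loess it was -0.14. Ddx6 and Ddx3x are singled out after their values were seen.

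Dhx29, which helps ribosomes scan structured leaders, was the lowest of the group at -0.29 (SE 0.22), with 7.58, 7.86 and 7.78 on the wild-type arrays and 7.78, 6.94 and 7.63 on the Dnmt3a+/- arrays; without Dnmt3a+/- replicate 2 the value was -0.03. Its case was the reverse of Ddx6, since 1 array carried nearly all of the difference. Ddx3x, an X-linked helicase which helps translate structured mRNAs, read 9.66, 10.03 and 9.75 on the wild-type arrays and 9.68, 9.28 and 9.64 on the Dnmt3a+/- arrays (difference -0.28, SE 0.16). Dhx36, which unwinds G-quadruplex structures, differed by -0.24 (SE 0.18) and overlapped. Dhx34, a factor of nonsense-mediated decay, lay on the other side at 0.09 (SE 0.11), from 7.50, 7.31 and 7.35 on the wild-type arrays to 7.41, 7.52 and 7.49 on the Dnmt3a+/- arrays, and its value was positive under all 15 alternative settings.

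**Figure D3:**
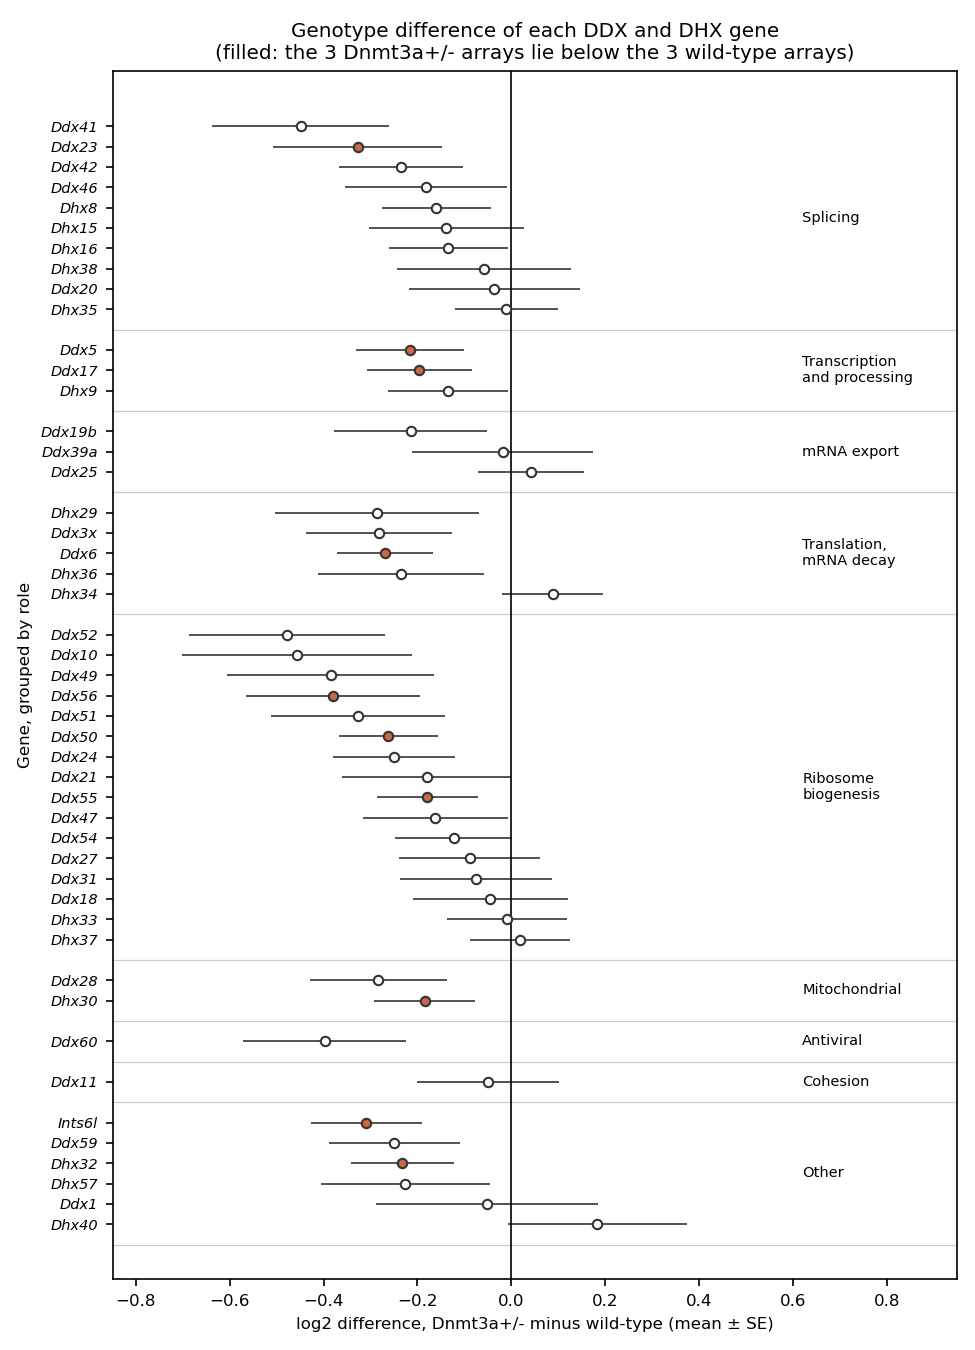
Log2 difference of each of the 47 genes (Dnmt3a+/- minus wild-type, horizontal axis, point and SE from the fit, n = 3 arrays per genotype), grouped by role; filled points mark the 10 genes whose genotypes did not overlap. Points lie left of 0 in every role, and 4 genes (Dhx40, Dhx34, Ddx25 and Dhx37) lie right of it.

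The largest role group was ribosome biogenesis, the nucleolar helicases that remodel ribosomal RNA precursors. Of 16 members 15 were lower, with a median of -0.18, and 3 (Ddx56, Ddx50 and Ddx55, or 18.8%) did not overlap. Of all genes 9.05% were lower without overlap, and 10.8% and 17.9% were in the third and highest level bands. Ddx52, a factor of the small subunit, had the lowest difference of all 47 genes: it read 7.47, 7.77 and 7.81 on the wild-type arrays and 7.30, 6.75 and 7.56 on the Dnmt3a+/- arrays, or -0.48 (SE 0.21, fold 0.718). Dnmt3a+/- replicate 3 lay inside the wild-type range. Without Dnmt3a+/- replicate 2 the value was -0.25, and after cyclic loess it was -0.46.

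Ddx56, which acts on the large subunit, read 8.003, 8.29 and 8.08 on the wild-type arrays and 7.95, 7.34 and 7.95 on the Dnmt3a+/- arrays. All Dnmt3a+/- arrays were lower, 2 of them by a small step (difference -0.38, SE 0.18), and without replicate 2 the value was -0.18. Ddx50 and Ddx21 are relatives that reside in the nucleolus. Ddx50 read 8.54, 8.67 and 8.52 on the wild-type arrays and 8.26, 8.34 and 8.34 on the Dnmt3a+/- arrays, with a difference of -0.26 (SE 0.11) that was as large without Dnmt3a+/- replicate 2 (-0.28) and -0.13 after cyclic loess. Ddx21 overlapped, with 8.72, 9.15 and 9.09 on the wild-type arrays and 9.002, 8.48 and 8.95 on the Dnmt3a+/- arrays (difference -0.18, SE 0.18). That value was -0.02 without Dnmt3a+/- replicate 2, -0.04 after cyclic loess and -0.375 with the median of probe sets. The within-array difference of Ddx21 and Ddx50 was 0.08 ± 0.32 (SD, n = 3) in Dnmt3a+/- cells relative to wild-type (SD 0.20), so the relatives were not set apart by genotype.

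The remaining ribosome biogenesis genes ranged from -0.46 (Ddx10, SE 0.25) to 0.02 (Dhx37, SE 0.11). Ddx10, singled out after its values were seen, lost most of its difference without Dnmt3a+/- replicate 2 (-0.18). Dhx37, which works on the small subunit, read 7.81, 7.69 and 7.66 on the wild-type arrays and 7.76, 7.65 and 7.80 on the Dnmt3a+/- arrays. For Ddx18, Ddx27 and Dhx33, singled out after their values were seen, the sign turned after both other normalizations. With cyclic loess it was 0.09, 0.03 and 0.07. Ddx49, at whose starts the interferon motif was also found, differed by -0.39 (SE 0.22), and by -0.12 without Dnmt3a+/- replicate 2. The other members of this group, Ddx24, Ddx31, Ddx47, Ddx51, Ddx54 and Ddx55, lay between -0.33 (Ddx51) and -0.07 (Ddx31).

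Both mitochondrial helicases were lower. Ddx28, which serves the mitochondrial large ribosomal subunit, read 7.41, 7.03 and 7.15 on the wild-type arrays and 7.03, 6.71 and 7.004 on the Dnmt3a+/- arrays (difference -0.28, SE 0.15), and it rests on 5 probe sets and stood at -0.01 with the filter at the 75th percentile. Dhx30, of mitochondrial RNA granules, read 7.64, 7.77 and 7.68 against 7.56, 7.40 and 7.57, without overlap (difference -0.18, SE 0.11).

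Ddx60, an interferon-inducible helicase linked to antiviral defence, was the only antiviral member the rule kept. It read 7.55, 7.51 and 7.38 on the wild-type arrays and 7.15, 6.71 and 7.38 on the Dnmt3a+/- arrays, so replicates 1 and 2 of Dnmt3a+/- lay below the wild-type range and replicate 3 met its lower end. The difference was -0.40 (SE 0.17, fold 0.759), and it was -0.21 without Dnmt3a+/- replicate 2 and -0.40 after cyclic loess. Of its 34 probe sets above the filter, 29 were lower. This is the gene whose promoter above carries 2 interferon motifs.

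Ddx11 differs from the rest in being a DNA helicase that serves sister chromatid cohesion. Its gene value hardly differed (-0.05, SE 0.15), with 7.18, 7.67 and 7.67 on the wild-type arrays and 7.42, 7.49 and 7.46 on the Dnmt3a+/- arrays. Its probe sets were the most widely spread of the family, from -1.40 to 2.13. The probe set at the upper end read 3.99, 6.02 and 5.50 on the wild-type arrays and 5.55, 8.69 and 7.66 on the Dnmt3a+/- arrays, so the genotypes overlapped there too, and its position in the gene was not used here.

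Of the 6 members with other or less known roles, 5 were lower. Ints6l, the Integrator relative, read 8.72, 8.64 and 8.62 on the wild-type arrays and 8.44, 8.18 and 8.44 on the Dnmt3a+/- arrays. All 3 Dnmt3a+/- arrays lay below (difference -0.31, SE 0.12, fold 0.807, limma adjusted p = 0.631), with -0.22 without replicate 2 and -0.17 after cyclic loess. Ddx59, Dhx32 and Dhx57 differed by -0.25, -0.23 and -0.23. Ddx1, a subunit of the tRNA ligase complex that is singled out after its values were seen, had the widest spread among them, with 8.36, 8.82 and 8.73 on the wild-type arrays against 8.60, 8.11 and 9.04, so both its lowest and its highest array were Dnmt3a+/- (difference -0.05, SE 0.24). Leaving Ints6l out as no classical helicase gave 42 of 46 genes lower and the same median (-0.18). Dhx40 had the highest difference of the family at 0.18 (SE 0.19), with 6.95, 6.56 and 6.95 on the wild-type arrays and 7.34, 6.67 and 7.003 on the Dnmt3a+/- arrays. It was above 0 under all 15 alternative settings, while the genotypes overlapped and the value was 0.02 without Dnmt3a+/- replicate 1.

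Counted over the family, the genotypes did not overlap in 10 of the 47 genes, always on the lower side in Dnmt3a+/- cells, where 9.05% of all genes were lower in this way; no member was higher without overlap. That share depended on the level: it was 2.5%, 4.9%, 10.8% and 17.9% of all genes in the 4 level bands from lowest to highest, and the members counted were 1 of 7 in the second band, 3 of 22 in the third and 6 of 18 in the highest. Dhx32 (difference -0.23, SE 0.11) completes the count. Leaving out a Dnmt3a+/- array cannot undo such a separation, so only the size of the difference can depend on that array. In Ddx6, Ddx50 and Ddx55, picked out after their values were seen, the size did not rest on Dnmt3a+/- replicate 2. Their differences without it were -0.28, -0.28 and -0.20. After cyclic loess 6 of the 47 did not overlap on the lower side (12.8%, against 6.5% of all genes). With the median of probe sets 5 did not (10.6%, against 7.9% of all genes), which is near the background. The 31 DDX genes had a median of -0.22 and the 15 DHX genes one of -0.14; this gap between the families was not tested.

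**Figure D4:**
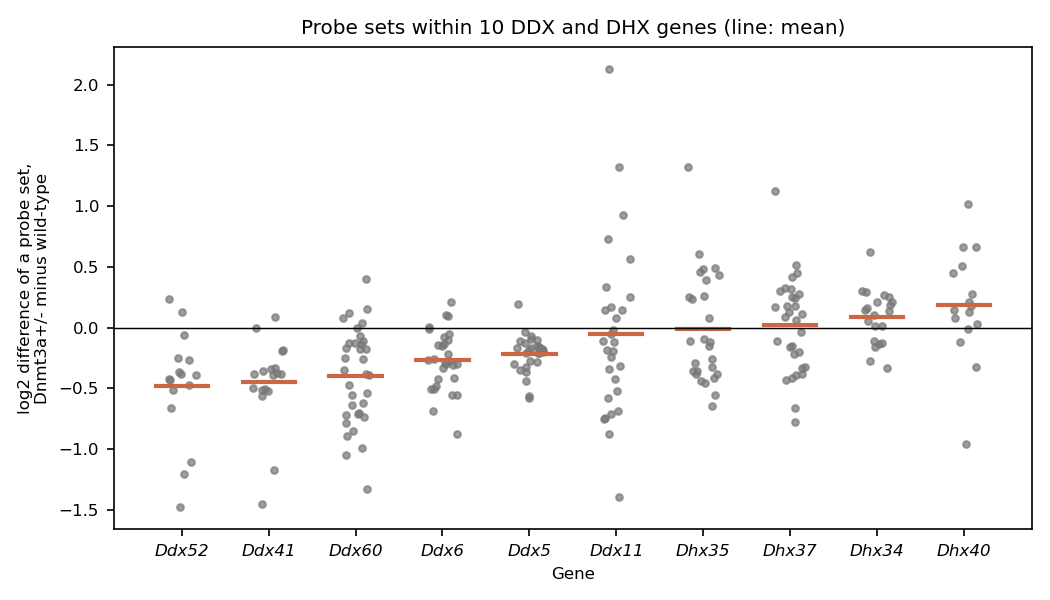
Log2 difference (Dnmt3a+/- minus wild-type, vertical axis) of each probe set above the filter in 10 of the genes (horizontal axis); points are probe sets and the line is their mean. The points of Ddx5 and Ddx41 lie almost wholly below 0 (27 of 28 and 17 of 18), while those of Ddx11 spread from -1.40 to 2.13.

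Within genes, the probe sets gave a similar picture to the gene values. Of the 1054 probe sets above the filter 745 were lower in Dnmt3a+/- cells (70.7%), against 58% of all 221209 named probe sets. Probe sets of a gene are read from the same RNA on the same arrays and do not count as separate evidence. The share was highest in Ddx5, a coregulator, with 27 of 28 lower. Ddx41 followed with 17 of 18, Ddx49 with 15 of 16, Ddx51 with 14 of 15 and Ddx3x with 24 of 26. At the other end, 6 of 21 were lower in Dhx34 and 4 of 16 in Dhx40. These extremes match the order of the gene values only in part: Ddx52, the lowest gene, had 14 of 16 lower, with single differences down to -1.48. That lowest Ddx52 probe set read 7.08, 7.80 and 7.64 on the wild-type arrays and 7.06, 4.23 and 6.78 on the Dnmt3a+/- arrays, so Dnmt3a+/- replicate 2 made most of it.

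RNA helicases with other names, among them the DEAD-box genes Eif4a1, Eif4a2 and Eif4a3, and proteins that bind the DDX and DHX helicases, showed values in the same range. Of 15 measured RNA helicases outside the symbol rule 14 were lower, with a median of -0.12, none passed after adjustment, and 4 did not overlap (the 9.05% above applies). The lowest was Ascc3, a helicase of ribosome quality control, at -0.26 (SE 0.10), and the highest was the decay helicase Upf1 at 0.03 (SE 0.10). Eif4a1, the DEAD-box helicase of translation initiation, stood at -0.07 (SE 0.13). Of 24 measured partners 23 were lower, with a median of -0.15 and none past adjustment. Casc3, of the exon junction complex, was lowest at -0.40 (SE 0.19), and Gemin4, a partner of Ddx20, was highest at 0.18 (SE 0.12). Eif4enif1, which binds Ddx6, read 8.73, 8.73 and 8.70 on the wild-type arrays and 8.46, 8.31 and 8.39 on the Dnmt3a+/- arrays (difference -0.33, SE 0.10, limma adjusted p = 0.631); it was singled out after its values were seen. As with the helicases themselves, Dnmt3a+/- replicate 2 had the lowest median of both lists (-0.29 and -0.35).

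**Figure D5:**
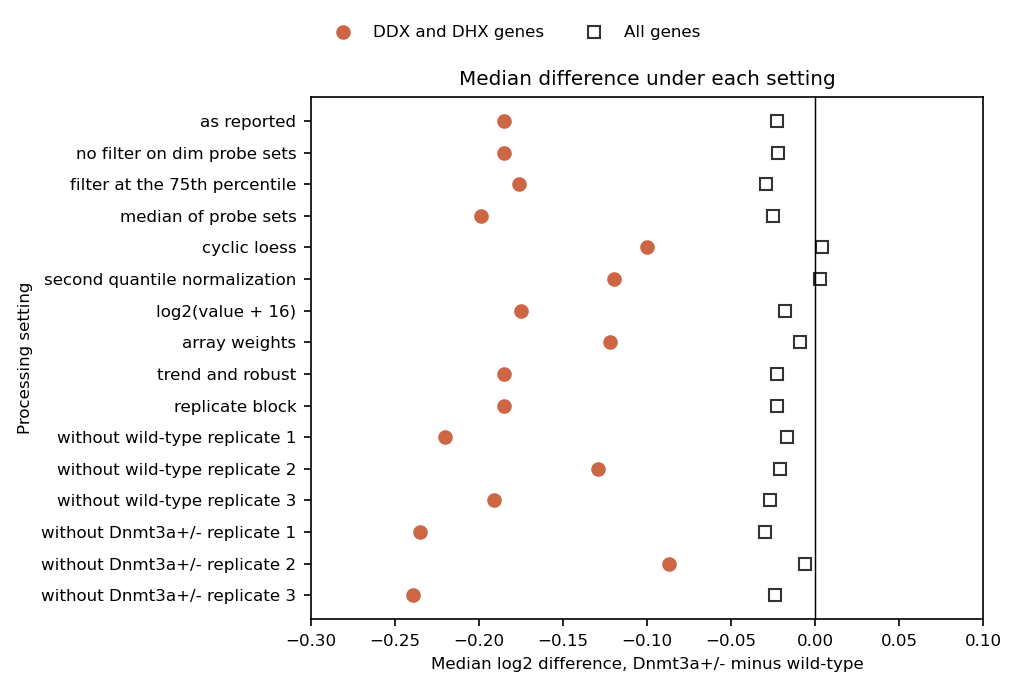
Median log2 difference (horizontal axis) of the 47 genes (filled circles) and of all genes (open squares) under each processing setting (vertical axis). The members' median stays below 0 throughout, from -0.24 without Dnmt3a+/- replicate 3 to -0.09 without Dnmt3a+/- replicate 2.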

How the data were processed

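The labels' protocols state that total RNA of sorted KLS cells was extracted with TRIzol and that 20 ng was amplified as whole-transcript cDNA and labelled with biotin. The authors deposited 1 table of probe-set intensity values made with RMA in Partek, per the submitters' processing notes; the sources used here give no version, setting or genome build. The values ran from 1.84 to 22239 with array medians of 59.8 to 61.6, so they were linear and log2 was taken. All 6 columns belonged to the series. Arrays have no sequencing depth, and precision is limited by how many there are.

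Gene names came from the platform annotation (318760 of 1256831 had 1 symbol, 6684 several, 931387 none listed), and 4227 older symbols were updated with RefSeq names (GRCm38.p6). A gene's value was the mean of its probe sets whose mean over all arrays exceeded the table's median. All 20059 genes were fitted with limma 3.58.1 in R 4.3.3 (lmFit, eBayes, no covariate), with Benjamini-Hochberg adjustment, and the fit was tested on simulated data. Non-overlap means that all arrays of one genotype lie beyond all of the other. With 3 against 3 arrays an exact permutation test of a single value cannot go below 0.1, so none is given.

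The members and lists were chosen with earlier results of these data known. Full values were printed for the lowest and highest member of each role, members without overlap and at least 0.3 apart, the relatives Ddx5 and Ddx17, Ddx19b, Ddx39a, Ddx21 and Ddx50, and Ddx41 and Dhx15; Ddx19a had no value here. Other names were given with their values known, and not all of them are marked so where they stand. Alternatives changed the filter, the summary, the normalization, the log offset, the weights and the variance model, added the replicate number as a block, or left out 1 array.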

Additional observations from a re-analysis of the deposited data

How the results depend on the processing

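No gene of the 20059 passed adjusted p 0.05 under any of the 15 alternatives (limma; 1502 had an unadjusted p under 0.05 in the reported fit), and the smallest adjusted p of a member in any setting was 0.324, with array weights. The number of lower members ranged from 35 (without Dnmt3a+/- replicate 2) to 44 (filter at the 75th percentile) of 47. The share of all genes that were lower was 51.5% and 55.5% under these settings. Leaving out 1 array gave medians from -0.239 to -0.087 and counts of lower members from 35 to 43, the latter a count added after the data were examined. Non-overlapping lower genes, 10 as reported, numbered 5 with the median of probe sets (10.6%, against 7.9% of all genes) and 6 after cyclic loess (12.8%, against 6.5%); without 1 array they ranged from 10 to 19, and over all genes from 12.5% to 17.2%, since fewer arrays overlap less often. For single genes the sign was negative in every setting for 31 members, positive for 2 and mixed for 14. Same-numbered arrays had correlations of deviations of -0.048, -0.091 and 0.113, inside the range of differently numbered arrays (-0.165 to 0.174). These values showed no pairing by replicate number. They cannot exclude it, since deviations from a mean of 3 arrays depend on each other. With the replicate block the median was -0.185, 43 members were lower, 10 did not overlap, 0 genes passed, and 1 member in place of 4 had an unadjusted p under 0.05. The causes were not tested. Signal over background was not available, so the filter on level was the only guard against dim probe sets.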
